A study of Homo sapiens with 12 samples.

Results

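The endothelin genes comprise the peptide genes EDN1 and EDN2, the converting enzyme gene ECE1 and the receptor genes EDNRA and EDNRB. They were taken by name: every probe set whose gene symbol in the probe table is exactly 1 of these 5 names. That gave 9 probe sets of 4 genes, out of 54613 probe sets and 19775 named genes: 3 for EDN1, 1 for EDN2, 2 for ECE1 and 3 for EDNRB. EDNRA was not analysed here, since the table lists no probe set under that name. The set was proposed because EDN1 had been seen to be higher in side population cells, and it was thus chosen by the measured difference between side population and other cells; every such difference of these genes is a description and carries no test.

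The samples were 12 Affymetrix arrays of A549, an established human lung adenocarcinoma line. The DNA dye Hoechst 33342 was given to all cultures (5 µg/ml, 90 min), and flow cytometry then divided them into the side population (SP), which exports the dye and stays dim, and the remaining cells (non-SP). The 4 groups were anti-EpCAM SP, anti-EpCAM non-SP, untreated SP and untreated non-SP, with 3 biological replicates each. Treated cultures had received a monoclonal antibody, which the protocol calls anti-mouse EpCAM, at 100 µg/ml for 48 h. The protocol mentions Hoechst staining with and without the pump inhibitor reserpine and does not tie either to an array, nor does it describe a control antibody for the untreated cells. All arrays come from a single cell line, so the replicates measure the spread between cultures or sorts of that line. RNA from sorted cells is bulk RNA, in which more expressing cells and more RNA per cell cannot be told apart.

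Endothelins are short secreted peptides cut from larger precursors, first by furin-type proprotein convertases into an inactive intermediate and then by the endothelin-converting enzyme ECE1 into the active peptide. They act on the G protein-coupled receptors EDNRA, which drives contraction and growth signalling through Gq and G12/13 proteins, and EDNRB, which also clears the peptide from the circulation. EDN1, best known from vascular endothelium, is also made by airway epithelium and by many carcinoma lines, and its transcript is short-lived and responds quickly to AP-1, GATA, hypoxia and TGF-beta signals.

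The promoter windows of both peptide genes are given because EDN1 had a higher level in SP cells with 1 probe set and EDN2 had no difference beyond its spread. They are RefSeq windows of the GRCh38.p14 build, from 250 bases before to 50 bases after an annotated start, and 4 short motifs were searched on both strands: TGACTNA (the AP-1 element), GATAA (the GATA element), ACGTG (the core of the hypoxia element) and TATAAA (the TATA box). These motifs do not contain one another. The first window is EDN1 at chr6:12290111-12290410, plus strand, 1 of 3 windows listed for that gene and the one with most motifs. The second is EDN2 at chr1:41484634-41484933, minus strand. Capitals mark motif matches.
EDN1: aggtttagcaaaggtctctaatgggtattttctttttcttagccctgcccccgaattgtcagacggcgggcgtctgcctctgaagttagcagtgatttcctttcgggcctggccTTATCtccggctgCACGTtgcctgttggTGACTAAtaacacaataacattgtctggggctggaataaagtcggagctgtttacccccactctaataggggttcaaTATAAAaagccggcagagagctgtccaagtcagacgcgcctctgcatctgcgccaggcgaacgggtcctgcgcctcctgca
EDN2: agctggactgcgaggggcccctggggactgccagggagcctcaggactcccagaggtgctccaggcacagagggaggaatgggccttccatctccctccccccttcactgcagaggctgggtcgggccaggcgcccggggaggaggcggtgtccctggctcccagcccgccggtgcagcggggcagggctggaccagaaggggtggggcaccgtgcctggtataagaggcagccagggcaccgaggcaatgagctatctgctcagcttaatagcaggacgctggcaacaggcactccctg
The EDN1 window held all 4 motifs, with GATAA on the opposite strand at -136 to -132, ACGTG on the opposite strand at -123 to -119, TGACTNA at -108 to -102 and TATAAA at -31 to -26, counted from the start. Of the 35116 windows of this length in the table, 11.7% held TGACTNA, 22.7% GATAA, 21.4% ACGTG and 11.5% TATAAA. These shares are for 1 motif in any window. The EDN1 window shown is the one of 3 with most motifs, so setting it beside them is no test. The other 2 EDN1 windows held ACGTG or TGACTNA. The EDN2 window, the 4 windows of ECE1 and the window of EDNRA held none of the 4. The 2 windows of EDNRB both held ACGTG, and 1 of them held GATAA as well. A match describes the letters of the window and not binding. A link between these motifs and the difference between SP and non-SP cells was not tested.

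The arrays were those of epithelial A549 cells: the 8 epithelial and A549 marker genes, among them KRT8, KRT18 and EPCAM, all lay above the filter on dim probe sets (a mean log2 level over 5.39, the 40th percentile), and their averaged log2 level was 12.75 to 13.40 in SP and 12.71 to 13.37 in non-SP arrays. Of 9 endothelial markers, VWF, KDR, CDH5, TIE1 and CLDN5 lay below it, PECAM1, ESAM, TEK and ROBO4 lay above it at mean log2 levels of 6.27 to 6.71, and the list averaged 5.02 to 5.70 in SP and 4.94 to 5.61 in non-SP arrays, with a mean SP minus non-SP of 0.07 ± 0.08 (SD, n = 6 pairs). The fibroblast and smooth muscle list (4 of 6 genes kept) averaged 5.12 to 5.79 in SP and 5.11 to 5.82 in non-SP arrays, and the immune list (4 of 5 kept, without PTPRC) 6.07 to 6.63 and 5.92 to 6.60, with SP minus non-SP of 0.02 ± 0.07 and 0.04 ± 0.08. The part of other cell types in the results was not tested. The sort was visible in ABCG2, the pump that exports Hoechst, whose log2 level was higher in the SP array in 6 of 6 pairs, by 0.36 to 0.69. The 2 fractions that carried 1 treatment and 1 replicate number resembled each other, with deviations from the group means correlating across probe sets at r of 0.52 to 0.86. Their sorted values differed by a mean of at most 0.02 on the log2 scale, against at least 0.05 between other arrays, so fraction differences were taken within these 6 pairs. A level compared between pairs crosses sets of arrays that look separately normalised, with array medians of 5.58 to 6.24.

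EDN1 encodes the precursor of endothelin-1, a strong vasoconstrictor and a growth factor for several carcinomas. Its probe set 222802_at had the largest SP minus non-SP of the 9 endothelin probe sets. In antibody-treated cells its RMA log2 level was 11.66, 12.55 and 12.53 in the SP arrays of pairs 1, 2 and 3, against 11.23, 12.03 and 11.85 in the non-SP arrays. In untreated cells it was 11.75, 11.81 and 12.50 in SP arrays, against 11.06, 11.33 and 11.74 in non-SP arrays. The SP array was higher in every pair, while the SP and non-SP levels overlapped in antibody-treated cells and did not overlap in untreated cells, where the lowest SP array lay only just above the highest non-SP array. SP minus non-SP was 0.43, 0.52 and 0.68 in the antibody-treated pairs and 0.69, 0.47 and 0.76 in the untreated pairs. The mean was 0.59 ± 0.14 on the log2 scale (SD, n = 6 pairs), a 1.51-fold higher level in SP cells.

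Of the 6 endothelin probe sets above the filter, 222802_at alone was higher in the SP array in all 6 pairs, a pattern shared by 5.01% of the 32768 probe sets kept; 0 of the 6 were lower in all 6 pairs, beside 4.53% of those kept. A mean difference at least as high was found in 43 of the 32768. EDN1 was chosen on these same values, so this rank and the share for all 6 pairs are a description and carry no test. Over the array 210 probe sets (0.641%) were called for SP against non-SP in limma, 0.156% higher and 0.485% lower, and 14.3% had an unadjusted p under 0.05; no such call is read for the endothelin probe sets. Ordered by group mean, this probe set was at 12.25 ± 0.51 in anti-EpCAM SP, 12.02 ± 0.42 in untreated SP, 11.70 ± 0.42 in anti-EpCAM non-SP and 11.38 ± 0.34 in untreated non-SP arrays (SD, n = 3). Each step between neighbours in that order was smaller than the SD of either group, so the fraction difference shows within pairs more clearly than between group means.

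**Figure D1:**
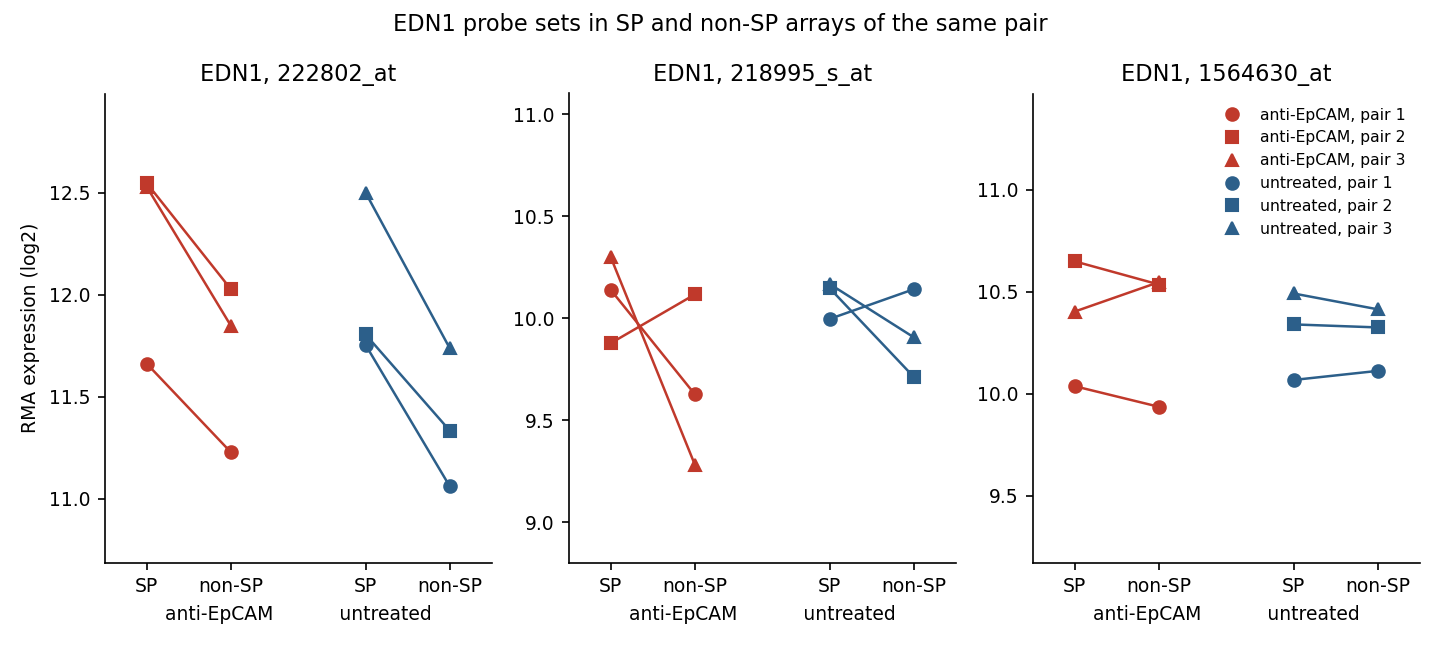
RMA log2 level of the 3 EDN1 probe sets in the SP and non-SP array of each pair (lines join the arrays of 1 pair; red, anti-EpCAM; blue, untreated; the vertical span is the same in each panel). All 6 lines of 222802_at fall towards non-SP, 4 of 6 do for 218995_s_at, and those of 1564630_at are nearly level.

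The other EDN1 probe sets did not show the same pattern. Probe set 1564630_at was at 10.04, 10.65 and 10.40 in SP against 9.94, 10.54 and 10.55 in non-SP arrays of antibody-treated cells, and at 10.07, 10.34 and 10.49 in SP against 10.11, 10.33 and 10.41 in non-SP arrays of untreated cells. Its SP minus non-SP was 0.02 ± 0.10 on the log2 scale (SD, n = 6 pairs), higher in 4 pairs and lower in 2. For this probe set the fractions overlapped in both treatments and differed by less than the spread between pairs.

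Probe set 218995_s_at lay between these. Its level was 10.14, 9.88 and 10.30 in SP against 9.63, 10.12 and 9.28 in non-SP arrays of antibody-treated cells. In untreated cells it was 10.00, 10.15 and 10.17 in SP against 10.14, 9.71 and 9.91 in non-SP arrays. SP minus non-SP was 0.51, -0.24 and 1.02 in the antibody-treated pairs and -0.15, 0.44 and 0.26 in the untreated pairs, with a mean of 0.31 ± 0.46 (SD, n = 6 pairs), so the spread between pairs exceeded the mean and 2 of 6 pairs went the other way. The mean differences of the 3 EDN1 probe sets spanned 0.57 on the log2 scale. Among the 1859 genes with exactly 3 kept probe sets that span had a median of 0.15, and 2.74% of genes spanned at least as much. EDN1 was chosen on the same SP minus non-SP values, so this share is a description and carries no test. The files do not give where in the transcript these probes lie, so which EDN1 transcript or end each reports was not tested.

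**Figure D2:**
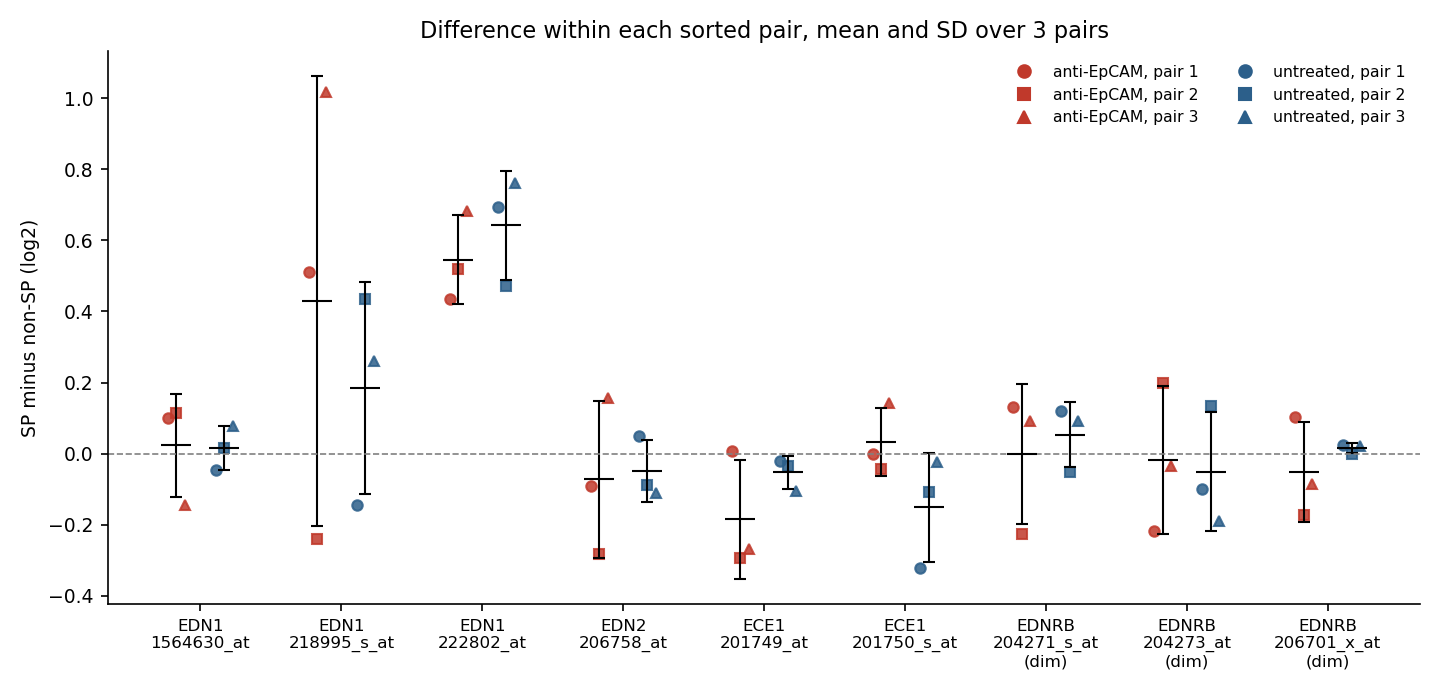
SP minus non-SP on the log2 scale for the 9 endothelin probe sets in each of the 6 pairs, with the mean and SD over 3 antibody-treated (red, left) and 3 untreated (blue, right) pairs; dim marks the 3 EDNRB probe sets below the filter. EDN1 222802_at lies above 0 in all 6 pairs, and every other probe set has pairs on both sides of 0.

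RNA quality moved with the pairs. The actin control compares probes at the 3' and the 5' end of 1 transcript, and its 3' minus 5' value is larger in more degraded or shorter-copied RNA. It was 3.14 in SP against 1.28 in non-SP in antibody-treated pair 1 and 1.03 in SP against 3.13 in non-SP in pair 3, a difference of 1.86 and -2.09, while in the other 4 pairs the difference lay between -0.36 and 0.27. These were the pairs in which 218995_s_at had its largest differences, 0.51 and 1.02. The 4 pairs without them averaged 0.08 ± 0.32 for 218995_s_at, 0.61 ± 0.14 for 222802_at and 0.04 ± 0.07 for 1564630_at (log2, SD, n = 4 pairs). With both treatments weighted equally, so that the treated value rests on pair 2 alone, they were -0.03 for 218995_s_at, 0.58 for 222802_at and 0.06 for 1564630_at. The actin control was at 2.61 to 2.95 in both fractions of untreated pairs 1 and 2. In untreated pair 3 and antibody-treated pair 2 it was at 0.94 to 1.39. The GAPDH 3' minus 5' control had an SP minus non-SP of 0.54, 0.30 and -0.38 in antibody-treated pairs 1, 2 and 3. In the untreated pairs it had -0.11, 0.01 and 0.11. The part of RNA quality in the EDN1 differences was not tested.

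**Figure D3:**
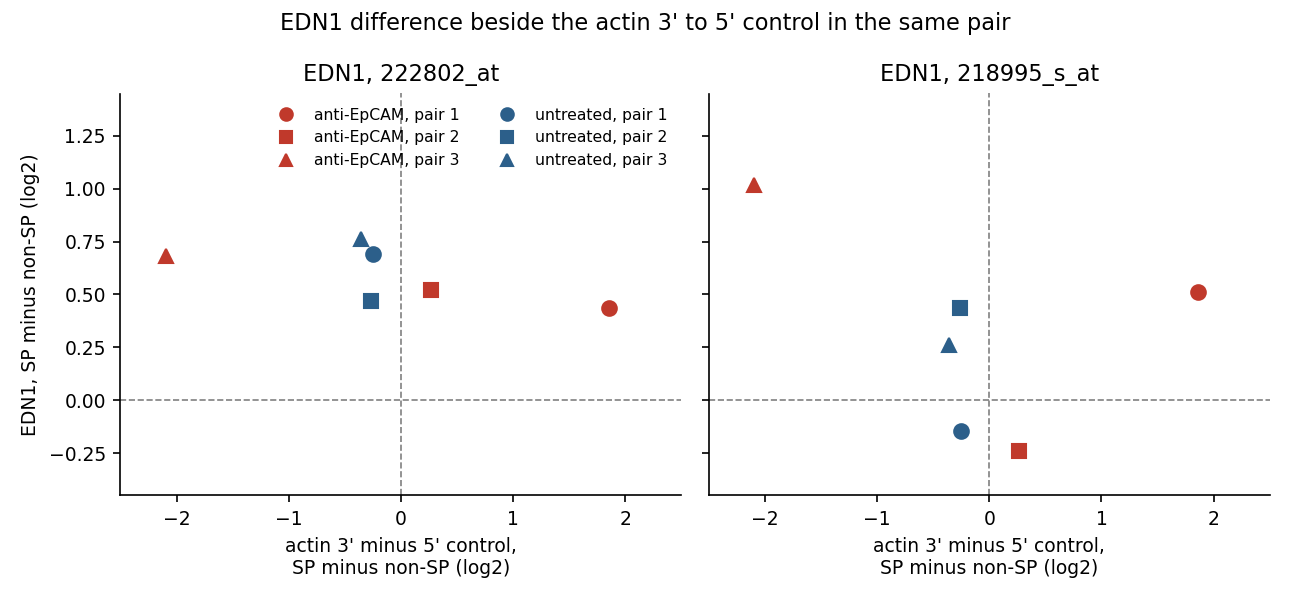
SP minus non-SP of 2 EDN1 probe sets (log2, vertical) against SP minus non-SP of the actin 3' minus 5' control in the same pair (log2, horizontal); each point is a pair. Antibody-treated pairs 1 and 3 lie far right and far left, with 0.43 and 0.68 for 222802_at and 0.51 and 1.02 for 218995_s_at.

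EDN2 encodes endothelin-2, which binds the same receptors as endothelin-1. Its only probe set, 206758_at, was at 6.48, 6.97 and 6.99 in SP against 6.57, 7.25 and 6.83 in non-SP arrays of antibody-treated cells, and at 6.48, 6.27 and 6.92 in SP against 6.43, 6.36 and 7.03 in non-SP arrays of untreated cells. The fractions overlapped in both treatments. SP minus non-SP was -0.06 ± 0.15 on the log2 scale (SD, n = 6 pairs), higher in 2 pairs and lower in 4. The mean log2 level of 206758_at was 6.71, near the 6.27 to 6.71 of the endothelial markers above the filter. Whether it holds signal was not tested. The third peptide gene, EDN3, was below the filter with both of its probe sets, at mean log2 levels of 5.30 and 5.13.

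ECE1 is the membrane metalloprotease that makes the active peptide from its intermediate. Its probe set 201749_at was at 8.51, 8.87 and 9.0 in SP against 8.50, 9.16 and 9.27 in non-SP arrays of antibody-treated cells. In untreated cells it was at 8.59, 8.74 and 8.90 in SP against 8.61, 8.77 and 9.0 in non-SP arrays. The SP array was lower in 5 of 6 pairs and higher by 0.01 in the remaining pair, but the levels overlapped and the mean of -0.12 ± 0.13 (SD, n = 6 pairs) was smaller than its spread. Most of it came from antibody-treated pairs 2 and 3, at -0.29 and -0.27. The second ECE1 probe set, 201750_s_at, was at 6.02, 6.80 and 6.42 in SP against 6.02, 6.84 and 6.28 in non-SP arrays of antibody-treated cells, and at 6.00, 6.29 and 6.99 in SP against 6.32, 6.39 and 7.02 in non-SP arrays of untreated cells. Its SP minus non-SP was -0.06 ± 0.15, and in antibody-treated pair 1 both arrays held the identical value. Its mean log2 level was 6.45, in the range of the endothelial markers above the filter, and whether it holds signal was not tested. In antibody-treated cells the 2 ECE1 probe sets had means of opposite sign, -0.18 ± 0.17 for 201749_at and 0.03 ± 0.10 for 201750_s_at (SD, n = 3 pairs).

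EDNRB, the receptor that clears endothelins and is needed in neural crest cells, lay below the filter with all 3 of its probe sets and was not tested. Their log2 levels ranged from 3.44 to 4.29 for 204271_s_at, from 2.63 to 3.34 for 204273_at and from 3.86 to 4.89 for 206701_x_at over the 12 arrays, against the filter level of 5.39. SP minus non-SP was 0.03 ± 0.14, -0.03 ± 0.17 and -0.02 ± 0.10 on the log2 scale (SD, n = 6 pairs), each with pairs on both sides of 0. The filter is a rank among probe sets and not a measured background, so whether these values hold signal was not tested. The markers of melanocytes, cells known for EDNRB (4 of 5 genes kept), averaged 6.55 to 7.12 in SP and 6.68 to 7.17 in non-SP arrays. Their SP minus non-SP was -0.08 ± 0.07 (SD, n = 6 pairs). MITF, their master factor, was at a mean log2 level of 9.88, while TYR, SOX10 and PMEL were at 5.47 to 6.14. MITF had an SP minus non-SP of -0.19 ± 0.06 (SE, limma adjusted p = 0.209).

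The antibody comparison did not choose these genes, so it was tested, on each pair's mean over its 2 fractions. No endothelin probe set passed in limma at an adjusted p under 0.05: 0 of 6, with 0 at an unadjusted p under 0.05 as well. Over the array 0 of 32768 probe sets passed (0%), and 156 (0.476%) had an unadjusted p under 0.05. EDN1 222802_at had pair means of 11.45, 12.29 and 12.19 with the antibody, against 11.41, 11.57 and 12.12 without it. The groups overlapped, with means of 11.97 ± 0.46 and 11.70 ± 0.37 (SD, n = 3 pairs each). The difference was 0.27 ± 0.29 on the log2 scale (SE; 95% interval -0.41 to 0.96; limma adjusted p = 1.00). EDN2 had 6.52, 7.11 and 6.91 with the antibody, against 6.45, 6.32 and 6.98 without it, a difference of 0.26 ± 0.25 (95% interval -0.31 to 0.84; limma adjusted p = 1.00). The intervals hold differences in both directions, and 3 pairs a group leave changes of this size undetectable.

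Of the other probe sets, EDN1 218995_s_at had an antibody difference of -0.12 ± 0.16 (SE), with a 95% interval of -0.50 to 0.25. EDN1 1564630_at had 0.06 ± 0.22, with a 95% interval of -0.45 to 0.57. The ECE1 probe sets had 0.12 ± 0.22 for 201749_at and -0.10 ± 0.30 for 201750_s_at. All had a limma adjusted p of 1.00, and the antibody-treated and untreated pair means of all 9 probe sets overlapped, while 1.97% of kept probe sets did not overlap. Array medians differed between pairs, and antibody-treated pair 1 had the lowest, 5.6 in SP and 5.58 in non-SP. It also had the lowest pair mean of EDN1 1564630_at and of both ECE1 probe sets, while the lowest of 222802_at lay in untreated pair 1, of EDN2 in untreated pair 2 and of 218995_s_at in antibody-treated pair 3. When all 12 arrays were given 1 common distribution by quantile normalisation, the SD of the 6 pair means fell for 8 of the 9 probe sets, for EDN2 to 0.15 after normalisation against 0.32 before it, and rose for 218995_s_at. The antibody difference was then 0.22 for 222802_at, 0.16 for EDN2, 0.05 for ECE1 201749_at and -0.01 for 1564630_at, whose sign turned. It was larger in size than before for 218995_s_at, at -0.20, and for ECE1 201750_s_at, at -0.22. The actin control also differed between pairs of the same treatment, and its part in the antibody differences was not tested.

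**Figure D4:**
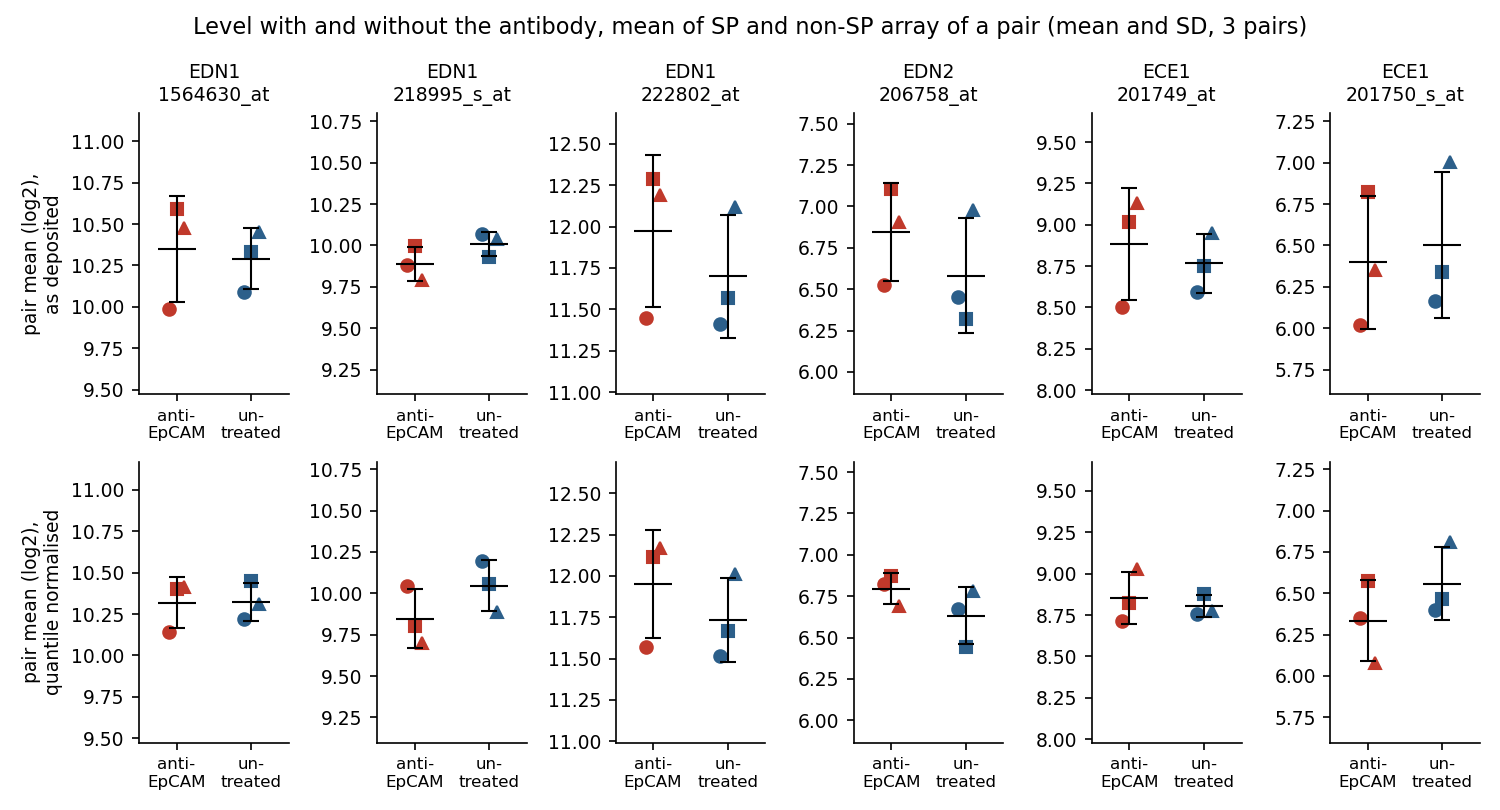
Pair means (each pair averaged over its 2 fractions, log2) of the 6 kept endothelin probe sets with the antibody (red, left) and without it (blue, right), as deposited in the upper row and after quantile normalisation over 12 arrays in the lower row; bars are the mean and SD over 3 pairs. The groups overlap in each panel of the upper row, as for EDN1 222802_at at 11.97 and 11.70.

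Whether the SP minus non-SP difference itself changed with the antibody was tested as an interaction over the same 6 pair differences. In limma 0 of the 6 endothelin probe sets passed, 0 had an unadjusted p under 0.05, and over the array 0 of 32768 passed (0%), with 520 (1.59%) at an unadjusted p under 0.05. For EDN1 222802_at the SP minus non-SP difference averaged 0.55 ± 0.13 with the antibody and 0.64 ± 0.15 without it (SD, n = 3 pairs each). The interaction was -0.10 ± 0.12 (SE; 95% interval -0.39 to 0.19; limma adjusted p = 1.00). For 218995_s_at the means were 0.43 ± 0.63 and 0.18 ± 0.30, and the interaction 0.25 ± 0.31 had a 95% interval of -0.47 to 0.96. For ECE1 201749_at the means were -0.18 ± 0.17 and -0.05 ± 0.05, with an interaction of -0.13 ± 0.12, and for 201750_s_at they were 0.03 ± 0.10 and -0.15 ± 0.15, with an interaction of 0.18 ± 0.12. EDN2 had -0.07 ± 0.22 and -0.05 ± 0.09, with an interaction of -0.02 ± 0.14. The antibody-treated and untreated pair differences overlapped for all 9 probe sets, while 5.24% of kept probe sets did not overlap.

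Genes that act before and after endothelin were followed in 6 lists, chosen with earlier results known, each gene represented by its kept probe set of highest mean. Of 101 genes measured above the filter, ATF3 and FOS passed for SP against non-SP in limma over the pairs, both higher, beside 0.464% of the 14649 genes so represented. At an unadjusted p under 0.05 stood 16 of the 101, or 15.8%, beside 13% of all genes. When 1 probe set per gene was tested and p adjusted over genes alone, 8 of the 101 passed beside 2.47% of all genes: ATF3, FOS, KLF2, FOSL1, FOXO1, GATA6 and PCSK6 higher, and RGS2 lower. KLF2, FOXO1, GATA6 and PCSK6 each had 1 other kept probe set, of opposite sign.

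Both called genes belong to the list of factors that act on the EDN1 gene. ATF3, a stress-induced AP-1 and CREB family factor, had an SP minus non-SP of 0.56 ± 0.06 (log2, SE over 6 pairs; limma adjusted p = 0.0183) and so rose in SP cells, and FOS, the inducible partner of JUN in AP-1, rose by 0.45 ± 0.05 (adjusted p = 0.0224), both in 6 of 6 pairs. With 1 pair left out in turn, 5 of the 6 fits called 0 of the 101 genes, and only the fit without antibody-treated pair 1 kept any, 3: the highest limma adjusted p with 1 pair left out was 0.0994 for ATF3 and 0.114 for FOS, and with independent arrays in place of pairs 0 of the 101 passed. KLF2, a factor induced by shear stress in endothelium, had 0.36 ± 0.06 (adjusted p = 0.0624). JUN itself had 0.02, HIF1A 0.00 and SMAD3 0.05 on the log2 scale, none of which passed. The list median was 0.08 over 29 genes, beside 0.01 over all genes. This list was chosen with earlier results known, so its median is a description and carries no test.

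**Figure D5:**
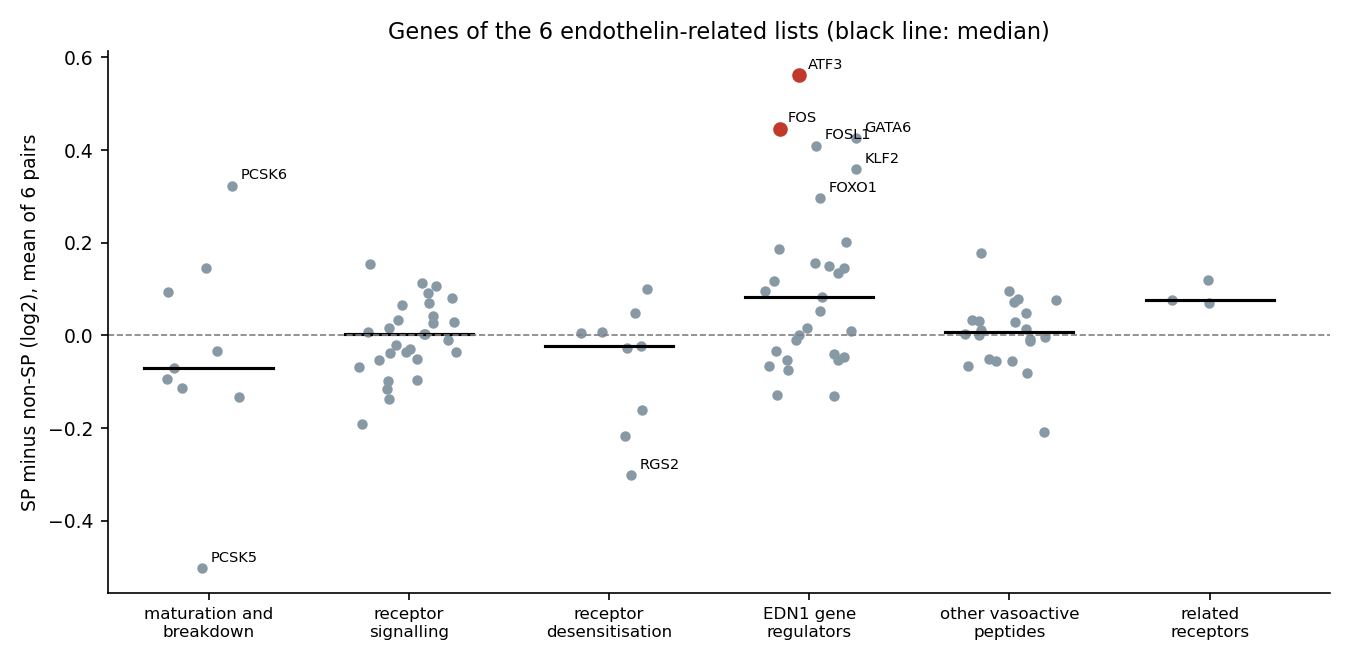
SP minus non-SP on the log2 scale (mean of 6 pairs) for each gene of the 6 lists; red points passed in limma, grey points did not, and the black line is the list median. ATF3 at 0.56 and FOS at 0.45 are the red points, both among the EDN1 gene regulators.

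Among 9 genes of precursor maturation and peptide breakdown 0 passed in limma, with a median of -0.07. The convertase PCSK6 had 0.32 ± 0.07 (SE; limma adjusted p = 0.0928), the convertase PCSK5 had -0.50 ± 0.14 (adjusted p = 0.172), and KEL, a relative of ECE1 that cleaves endothelin precursors, had 0.14 ± 0.06 (adjusted p = 0.311). FURIN had -0.13 and ECE2 -0.07, and EDN3, the mast cell protease CPA3 and the chymase CMA1 lay below the filter. Among 29 genes of receptor signalling 0 passed, with a median of 0.00; the smallest p values belonged to the protein kinase PRKCA (-0.19 ± 0.08), the G protein subunit GNAI1 (0.11 ± 0.06) and RHOA (0.15 ± 0.09). Among 9 genes that shut receptors off 0 passed, with a median of -0.02: RGS2, which speeds the switching-off of Gq, had -0.30 ± 0.06 (limma adjusted p = 0.0925) and was lower in 6 of 6 pairs, RGS3 had -0.16 ± 0.06 and the kinase GRK5 had -0.22 ± 0.10. All 3 were below 0 without passing. RGS3, PRKCA and ECE2 each had 1 other kept probe set of opposite sign, and GRK5 had 2.

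Of 22 genes of other vasoactive peptides and their receptors 0 passed in limma, with a median of 0.01. The vasodilator adrenomedullin ADM had 0.18 ± 0.06 (SE; limma adjusted p = 0.225), higher in 6 of 6 pairs, the angiotensin receptor AGTR1 had -0.21 ± 0.10 and the receptor partner RAMP3 had 0.10 ± 0.05. AGTR1 had 1 other kept probe set, of opposite sign. Of the 3 kept genes of related receptors 0 passed, at 0.12 ± 0.09 for GPR37, 0.07 ± 0.06 for GPR37L1 and 0.08 ± 0.06 for GRPR. In the antibody and interaction contrasts 0 of the 101 genes passed in limma, with 0 and 2 at an unadjusted p under 0.05, beside 0.28% and 1% of all genes. The 2, named after their values were seen, were PRKCB, with an interaction of 0.29 ± 0.10, and RAMP3, with 0.26 ± 0.10.

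The genes whose pattern was most like EDN1 were sought by the Pearson correlation with 222802_at over the 6 within-pair differences, among 14646 other genes. The 10 highest were PRR3, TBC1D21, KCNK15, TBCC, ZWINT, TBC1D17, RAPGEF5, DTNBP1, VSX1 and FNBP4, with r of 0.97 to 0.99. Likeness in this sense did not mean a rise: only PRR3 (0.08 ± 0.08) and RAPGEF5 (0.31 ± 0.20, SD, n = 6 pairs) were higher in SP in all 6 pairs, and ZWINT had -0.03 ± 0.06. Over the 12 array levels their r with 222802_at was 0.19 to 0.85. With so few points 94 genes had r over 0.9, so the order of these genes carries little weight.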

How the data were processed

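The authors deposited log2 values made by RMA, according to the submitters' processing notes, with no version named; which arrays were processed together and the annotation build are not given in the sources used here. They ranged from 2.43 to 14.95 with 0 negative values. Probe sets were named from a probe table of the array platform, and symbols were updated by gene identifier: of 54613 probe sets besides 62 controls, 41091 had 1 symbol, 1801 several and 11721 none listed.

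The members, lists, motifs and settings were chosen with earlier results of these data known. Probe sets with a mean over 12 arrays above the 40th percentile were kept (32768). With limma 3.58.1 in R 4.3.3, moderated two-sided tests without trend, adjusted by Benjamini-Hochberg over all kept probe sets (threshold 0.05), were run on 3 contrasts: SP minus non-SP within 6 pairs, its interaction with the antibody, and antibody minus untreated over pair means. Pairing follows treatment and replicate number, since treated and untreated cells were sorted into both fractions per the labels. The labels do not say that 1 number is 1 culture. The correlations of 0.52 to 0.86 and the sorted values show likeness within these pairs and not that a pair is 1 culture. Treated and untreated pairs of numbers 1, 2 and 3 correlated with r of 0.74, -0.26 and 0.57 and were not paired. The r of numbers 1 and 3 lay within the range found inside pairs, so the correlations alone do not single out this pairing. The 6 pairs were taken as independent, which was not tested. The fits were tested on simulated data.

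Named genes of each list are those called and, where fewer than 3 were, the 3 of smallest p in the fraction contrast; JUN, HIF1A, SMAD3, FURIN and ECE2 were added for their roles after their values were seen. The number of arrays limits the precision. In the 3 contrasts a p-value sets a difference against the moderated spread between these pairs. A single gene's 3 against 3 exact test could not go below 0.1 and was not used.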

Additional observations from a re-analysis of the deposited data

How the results depend on the processing

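Counts of calls depended on the setting. The values of the endothelin probe sets moved less, but several settings leave each value as it is. For SP against non-SP over pairs, limma called 210 probe sets and 2 of 101 list genes. The count stayed close at 238 with no filter, 219 with a filter at the 60th percentile and 200 after quantile normalisation. List genes called were then 2 of 120, 2 of 80 and 2 of 101. The calls came to 362 probe sets and 8 list genes with 1 probe set per gene, 45 and 0 with the GAPDH 3' to 5' control difference as a covariate, and 0 and 0 with a variance trend, with no replicate block (independent arrays) or, a setting added after seeing the data, without antibody-treated pairs 1 and 3. With 1 pair left out they ranged from 0 to 322 probe sets and from 0 to 3 list genes: 0 without untreated pair 3 or antibody-treated pair 2, and 322 without antibody-treated pair 1. The cause was not tested. The antibody and interaction contrasts called 0 under each setting run, the replicate block for the antibody included.

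Over the settings EDN1 222802_at kept an SP minus non-SP of 0.56 to 0.64, EDN1 218995_s_at had -0.03 to 0.47, EDN1 1564630_at -0.0045 to 0.06, EDN2 -0.17 to -0.01, ECE1 201749_at -0.17 to -0.09 and ECE1 201750_s_at -0.10 to -0.02. The filter settings, 1 probe set per gene, the variance trend and the replicate block settings alter the tests and not the mean differences. Values recomputed under them could not change sign, so the count of kept signs is partly fixed in advance. Of 240 recomputed member values 221 kept their sign and 19, none of them called, changed it: 9 in the antibody contrast, 7 in the interaction and 3 for SP minus non-SP. The last were EDN1 1564630_at, at -0.0028 without antibody-treated pair 2 and -0.0045 with the GAPDH covariate, and EDN1 218995_s_at, at -0.0278 without antibody-treated pairs 1 and 3; each moved by under 1 SD. In the antibody contrast EDN1 1564630_at turned to -0.0055 with quantile normalisation, ECE1 201750_s_at to 0.320 without antibody-treated pairs 1 and 3, and EDN1 218995_s_at to 0.0013 in SP arrays alone. With 1 pair left out, that contrast ranged from 0.118 to 0.539 for EDN1 222802_at, from 0.132 to 0.463 for EDN2, from -0.0609 to 0.242 for EDN1 1564630_at, from -0.317 to 0.146 for ECE1 201750_s_at, from -0.0074 to 0.309 for ECE1 201749_at and from -0.175 to -0.0722 for EDN1 218995_s_at. The interaction ranged from -0.0376 to 0.0912 for EDN1 1564630_at, from -0.138 to 0.0817 for EDN2 and from -0.0471 to 0.581 for EDN1 218995_s_at, which was at -0.423 without antibody-treated pairs 1 and 3. Arrays give no depth. Signal over background, which the deposited values do not give, was not assessed for EDNRB, EDN2 or ECE1 201750_s_at.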
